A study of Mus musculus with 5 samples.

Results

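Mouse gut after LG21 and aspirin was set against mouse gut after teprenone and aspirin, gene by gene, as the value of the LG21+Asp array minus that of the Tep+Asp array. These are 2 of the 5 arrays of the study, and all 19938 measured genes entered the comparison. LG21 is the bacterium Lactobacillus gasseri OLL2716, Asp is aspirin, Tep is teprenone, a drug that protects the stomach lining, and GA is gum arabic, the vehicle. Both groups of the comparison therefore carried aspirin and differed in what came with it. The other 3 arrays, GA+GA (vehicle control), LG21+GA and GA+Asp, are given beside each result to show where an unexposed or singly exposed gut lay. All animals were healthy male mice of the outbred ddY stock aged 5 weeks. Each received 2 oral administrations 0.5 hours apart, and the gut was taken 4 hours after the last. RNA came from a portion of each gut. The labels used here do not say how many mice an array represents, and they give no doses.

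There was 1 array per group, so no difference could be tested against the spread between animals. Values are RMA expression values, taken as log2, on which a difference of 1 is 2-fold. Levels of different genes are not comparable as amounts, because each probe set binds with its own strength. The arrays were alike as a whole. Their medians lay between 6.94 and 6.98, the pair correlated with a Pearson's r of 0.996 over all probe sets, and 97.3% of the 9969 genes above the filter (a mean over the 5 arrays above 7.41) differed by less than 0.2. Exactly equal values on both arrays were given for 26.9% of all genes.

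The labels call the tissue whole gut. Of the gastric gland genes 21 of 23 were above the filter, with a list median between 12.87 and 12.90 on every array, and the surface mucin gene Muc5ac read 13.29 to 13.34. Of the intestinal genes 10 of 24 were above the filter. Among the defining ones, the brush border gene Vil1 read 8.12 to 8.20, the transcription factor genes Cdx1 and Cdx2 7.60 to 7.70 and 6.40 to 6.43, and the fatty acid carrier gene Fabp2 6.54 to 6.95. The highest of the list was the apolipoprotein gene Apoa1, at 12.65 to 12.71. The gastric gland list differed little within the pair (23 genes, median -0.02, none 2-fold apart), and so did the intestinal list (24 genes, median 0.02). Proliferation genes had a median of 0.00 over 27 genes.

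In the mouse, the upper part of the stomach, the forestomach, is lined by a stratified squamous epithelium like that of the skin and oesophagus, while the lower part carries glands. Basal cells of such an epithelium divide on a basement membrane and express keratins 5 and 14. Cells leaving that layer switch to other keratins, knit together with desmosomes, and finally die into flat corneocytes whose membrane is replaced by a cornified envelope of cross-linked loricrin, small proline-rich and late cornified envelope proteins. Stroma, vessels, muscle and resident immune cells lie beneath, and growth factors of the EGF, FGF and TGF beta families pass between the layers.

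The comparison was dominated by genes of this squamous epithelium, which were lower in LG21+Asp than in Tep+Asp. Above the filter 27 of 9969 genes (0.271%) were at least 2-fold lower in LG21+Asp, and 23 of the 27 were on the squamous lists. Of all 9969 filtered genes 82 were on these lists, which were chosen with earlier results of these data known. Without the filter 46 of 19938 genes (0.231%) were lower, 36 of them on the squamous lists, which held 185 measured genes. Higher in LG21+Asp by at least 2-fold were 7 filtered genes (0.0702%), all on the hepatocyte list, and 11 genes without the filter (0.0552%). No stroma or growth factor gene on the lists was 2-fold apart in either direction, and among immune genes only Il1f6 and Il1f8, both below the filter, were. In RNA from whole tissue, fewer cells of a type and less RNA per cell cannot be told apart.

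The 27 lower genes shared a position that the counting rule did not use. In all 27, Tep+Asp lay above the other 3 arrays and LG21+Asp lay below them, as it did in all 46 counted without the filter. Over all genes this held for 541 of 19938 (2.71%), with Tep+Asp above the other 3 in 16.3% and LG21+Asp below them in 18%. A large gap between the pair makes this order more likely, so it is given as a description. Taken array by array, the median level of the 27 genes stood at 9.38 in Tep+Asp and 7.63 in LG21+Asp, against 8.86, 8.89 and 8.86 in GA+GA, LG21+GA and GA+Asp. Tep+Asp exceeded the highest of the other 3 by 0.14 to 0.84, and LG21+Asp lay under the lowest of them by 0.47 to 2.03. Measured from the median of the other 3, a median of 66.8% of the gap lay on the LG21+Asp side. That share ran from 45.8% for Elovl4, a fatty acid elongase, to 90.3% for the keratin gene Krt4.

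The difference within the pair was at least 2.79 times the spread of the other 3 arrays in each of the 27 genes, with a median ratio of 8.03. These genes were counted for a large difference, and the median spread over all filtered genes was 0.06. Large ratios were therefore likely from the start and are given as a description. In Serpinb12 the spread was 0, and its ratio was counted as the highest. The other 3 are different treatments, so their spread is not a replicate error. GA+Asp, the array with aspirin alone, was the lowest of the 3 in 19 of the 27, and in 1344 of the 9969 filtered genes. Among filtered genes, those just inside and outside the threshold were Mt4 (-1.30) and Krt6b (-0.92). Genes below the filter lay between these values, among them Casp14 (-1.28) and Lce1d (-1.02), so the gap held for filtered genes only.

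**Figure D1:**
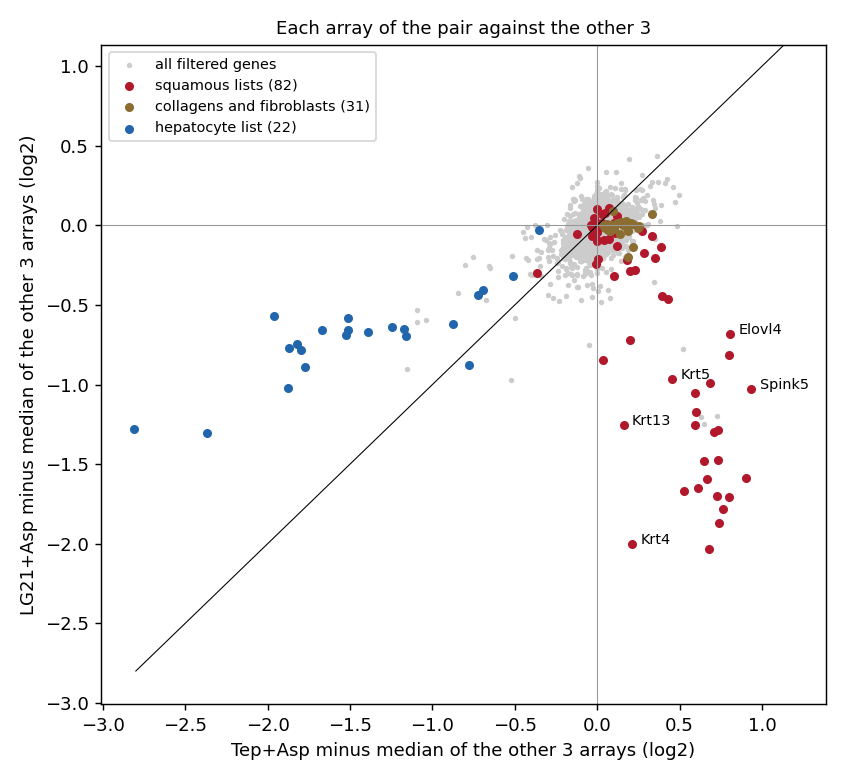
Each point is a gene above the filter, with its Tep+Asp value (horizontal) and its LG21+Asp value (vertical) given as log2 differences from the median of the other 3 arrays; the line marks equal values in the pair. Red squamous genes extend to the lower right, brown collagen and fibroblast genes spread along the horizontal axis, and blue hepatocyte genes lie at lower left, mostly above the line.

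The plot of each array against the other 3 separates 3 patterns that the plain difference merges. Among squamous genes the 23 above the filter that were 2-fold lower departed on both arrays in opposite directions, as did 77 of all 185 on the squamous lists, while 34 lay within the range of the other 3 on both arrays. Collagen and fibroblast genes departed mainly on Tep+Asp, by a median of 0.14 against 0.00 for LG21+Asp. Hepatocyte genes were below the median of the other 3 on both arrays, by a median of -1.45 in Tep+Asp and -0.66 in LG21+Asp. In 25 of the 28 measured, however, both arrays lay within the range of the other 3. The median spread of those 3 was 2.70, with GA+Asp the lowest of them in 27 genes.

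In the basal layer, 10 of 19 measured genes were lower in LG21+Asp, 7 higher and 2 equal, with a median of -0.03. Of all genes 33.6% were lower, but of the 9969 filtered genes 4721 were. As 14 of the 19 were above the filter, the basal count was near the filtered share. Krt5, a keratin of dividing squamous cells, read 8.58 in GA+GA, 8.54 in LG21+GA, 8.07 in GA+Asp, 9.0 in Tep+Asp and 7.58 in LG21+Asp. Its difference of -1.42, 2.68-fold, was the only 2-fold one of the list, and the pair lay on either side of the other 3. Krt14, the partner keratin of Krt5, read 7.09, 7.01, 6.86, 7.40 and 6.77 in the same order, a difference of -0.62 with the same arrangement. Cd44, a receptor for hyaluronan found on basal and many other cells, stood out mainly in Tep+Asp, at 8.14 against 7.83 in LG21+Asp and 7.86 to 7.87 elsewhere.

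The rest of the basal list, much of which gland cells also express, hardly differed. Krt15, another basal keratin, was at 7.14 in Tep+Asp and 7.07 in LG21+Asp, both under the 7.19 to 7.27 of the other 3. The integrin gene Itga6 differed by -0.03, Itgb4 was 9.43 on every array, and Lamb3, a laminin of the epithelial basement membrane, was slightly higher in LG21+Asp (9.34 against 9.30). Trp63, the transcription factor that sets squamous fate, was 6.76 in Tep+Asp and 6.70 in LG21+Asp, with 6.70 to 6.76 on the other 3. So Krt5 and Krt14 were apart, while Krt15, Trp63 and these anchoring genes differed by less than 0.1. Krt14, Krt15 and Trp63 were below the filter, where low signals compress differences.

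Among squamous transcription factors 12 of 17 were lower in LG21+Asp and 1 was higher, with a median of -0.03 and none 2-fold apart. Trim29, a cytoplasmic regulator abundant in squamous cells, had the largest difference, -0.64, with 7.29 in Tep+Asp, 6.64 in LG21+Asp and 6.88 to 7.14 elsewhere. Grhl3, a grainyhead factor of barrier formation, was 7.11 against 6.83 (-0.28), again on either side of the other 3, which ran from 6.92 to 7.05. Sfn, the epithelial 14-3-3 protein, and Zfp750, a differentiation factor, followed with 9.20 against 9.04 and 8.68 against 8.54. Klf4 and Klf5, which gland cells express too, lay close together, at 10.22 against 10.19 and 10.71 against 10.68. Regulators thus showed the order of the structural genes in 5 of 17 members, with smaller differences.

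Suprabasal keratins divided into a few genes far apart and many at rest. Of 17 measured, 12 were lower in LG21+Asp, 2 higher and 3 equal, and the median of -0.08 against a mean of -0.56 shows how few carried the difference. Krt1 and Krt10, the keratin pair of keratinising cells, were high in Tep+Asp and low in LG21+Asp. Krt1 read 10.14 in GA+GA, 10.25 in LG21+GA, 9.67 in GA+Asp, 10.79 in Tep+Asp and 8.66 in LG21+Asp, 4.38-fold lower in the last. Krt10 read 10.37, 10.58, 10.02, 11.11 and 9.09 in that order, 4.05-fold lower.

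Krt4 and Krt13, the pair typical of moist squamous linings such as the oesophagus, were low in LG21+Asp without much excess in Tep+Asp. Krt4 read 8.88 in GA+GA, 8.36 in LG21+GA, 8.95 in GA+Asp, 9.09 in Tep+Asp and 6.87 in LG21+Asp, 4.65-fold lower. Krt13 read 9.22, 9.09, 9.22, 9.38 and 7.97, 2.66-fold lower. On the LG21+Asp side lay 90.3% of the Krt4 gap and 88.6% of the Krt13 gap, against 69.5% for Krt1 and 63.8% for Krt10. The keratins of injured or fast-growing squamous epithelium gave smaller differences. Krt6b was 7.71 against 6.79 and Krt17 7.03 against 6.48, Krt6a was 6.34 against 6.13, and Krt16 stood at 5.99 on every array.

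**Figure D2:**
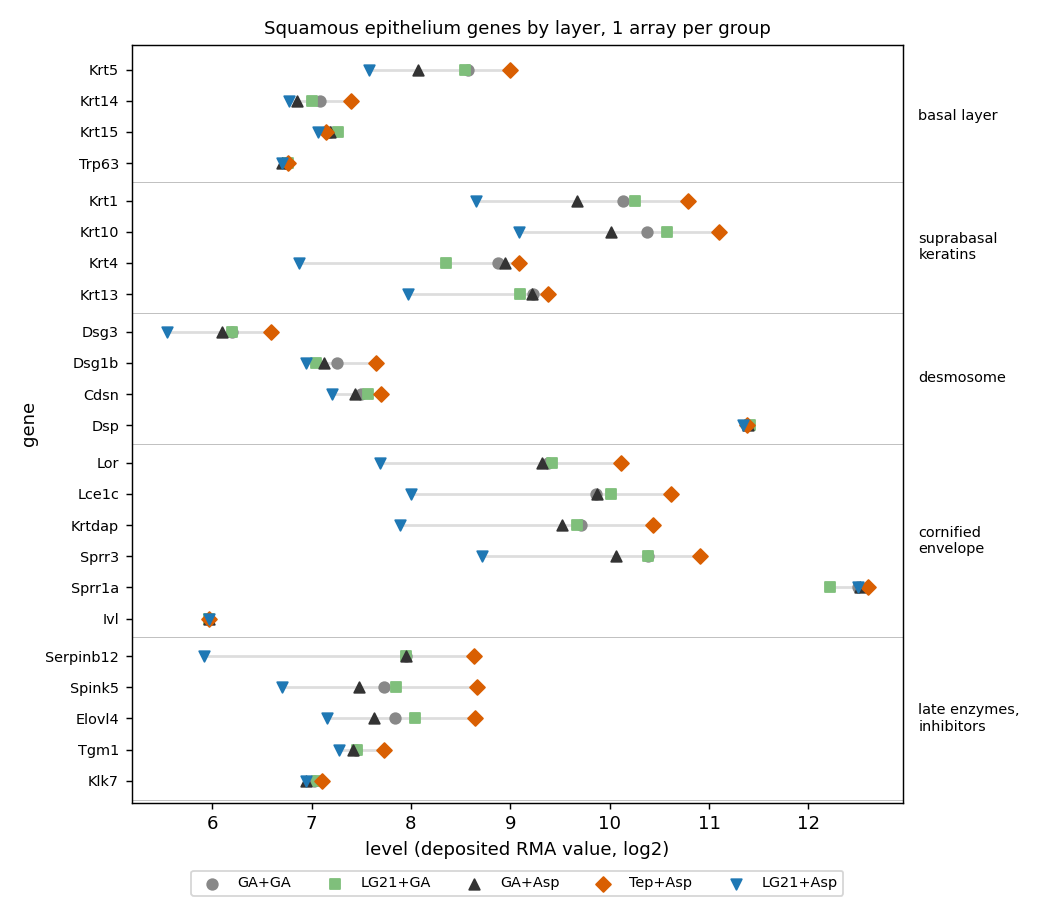
Deposited log2 levels (horizontal) of squamous genes grouped by layer, with 1 symbol per array and a grey line from the lowest to the highest of the 5. Tep+Asp (orange) is the highest and LG21+Asp (blue) the lowest array for most genes, and the 3 other arrays lie between, whereas Krt15, Trp63, Dsp, Ivl, Sprr1a and Klk7 show no such gap.

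Desmosome genes followed the split between skin-type and general members. The list had 14 measured genes, 10 lower and 2 higher in LG21+Asp, with a median of -0.06. Dsg3, a desmosomal cadherin of squamous cells, read 6.20 in GA+GA, 6.20 in LG21+GA, 6.10 in GA+Asp, 6.59 in Tep+Asp and 5.54 in LG21+Asp (-1.05). Dsg1b, its counterpart in upper layers, was 7.65 against 6.94, and corneodesmosin (Cdsn), which holds corneocytes together, was 7.70 against 7.21. Dsc3 was 6.45 against 6.03. In all of these Tep+Asp was the highest and LG21+Asp the lowest array. Members shared with gland epithelium lay close together, Dsp at 11.38 against 11.35, Jup at 11.93 against 11.92 and Dsg2 at 9.93 against 9.95.

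The cornified envelope held the bulk of the difference. Of 44 measured genes 33 were lower in LG21+Asp and 9 higher, 19 were at least 2-fold lower, and the median was -0.74. In 25 of the 44 Tep+Asp lay above and LG21+Asp below the other 3 arrays. Loricrin (Lor), the main protein of the envelope, read 9.38 in GA+GA, 9.42 in LG21+GA, 9.32 in GA+Asp, 10.11 in Tep+Asp and 7.68 in LG21+Asp, 5.38-fold lower in the last. Krtdap, a secreted protein of differentiating keratinocytes, read 9.72, 9.68, 9.52, 10.44 and 7.89, 5.84-fold lower.

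The late cornified envelope genes (Lce), small genes switched on as cells cornify, were the largest group. Lce1c read 9.87 in GA+GA, 10.01 in LG21+GA, 9.88 in GA+Asp, 10.62 in Tep+Asp and 8.0 in LG21+Asp, 6.12-fold lower. Lce1a1 (5.69-fold), Lce1e (5.62-fold), Lce1h (4.63-fold) and Lce1j (3.60-fold) had the same arrangement. These genes are near-identical in parts, so a probe set may read several of them. Of the Lce3 genes, known for their induction in damaged epithelium, Lce3e was 6.85 in Tep+Asp and 4.46 in LG21+Asp, the latter under 4.91, the highest value of Xist, a gene silent in males, so no fold is given. Lce3b went the other way, at 6.31 against 6.59.

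Other envelope and filament-linked proteins of the top layers lay in the same order. Kprp was 8.67 in Tep+Asp and 6.41 in LG21+Asp (4.79-fold lower), Crct1 9.38 and 7.12 (4.78-fold), hornerin (Hrnr) 10.01 and 8.01 (4.01-fold), cornifelin (Cnfn) 9.46 and 7.81 (3.13-fold) and dermokine (Dmkn) 8.66 and 7.05 (3.07-fold). Their other 3 arrays ran from 7.77 (Dmkn) to 9.50 (Hrnr) and never overlapped either array of the pair. Dmkn was divided almost evenly, with 50.3% of its gap below the other 3.

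Small proline-rich proteins, the cross-bridging part of the envelope, differed from member to member. Sprr3, typical of the oesophagus, read 10.39 in GA+GA, 10.38 in LG21+GA, 10.06 in GA+Asp, 10.91 in Tep+Asp and 8.72 in LG21+Asp, 4.58-fold lower. Sprr1a read 12.50, 12.22, 12.51, 12.60 and 12.50, a difference of -0.10. Sprr1b was 6.37 on both arrays of the pair, and Sprr2 genes ran from -0.20 (Sprr2d) to 0.34 (Sprr2e). Involucrin (Ivl), an early envelope protein, was listed at 5.96 on all 5 arrays. Sprr3 and Sprr1a were above the filter. Sprr1b, Sprr2d, Sprr2e and Ivl were below it, where low signals compress differences, so a lack of difference there is uncertain. The filaggrin gene Flg had no probe set naming it alone and was not analysed here, and Flg2 was 4.74 against 5.02.

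Many of these genes sit side by side on chromosome 3 in the epidermal differentiation complex. The complex was examined after the values were seen, with gene order taken from RefSeq. Of its 70 genes 60 were measured, 34 were lower and 19 higher in LG21+Asp, and 16 were at least 2-fold lower, 10 of them above the filter. The complex as a whole had a median of -0.05. Its 14 measured S100a genes, calcium-binding proteins used by many cell types, ran only from -0.12 to 0.15, while the other 46 had a median of -0.30 and held all 16. Of the 27 lower genes 11 were on chromosome 3, and the keratin clusters on chromosomes 15 and 11 held 3 and 2.

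**Figure D3:**
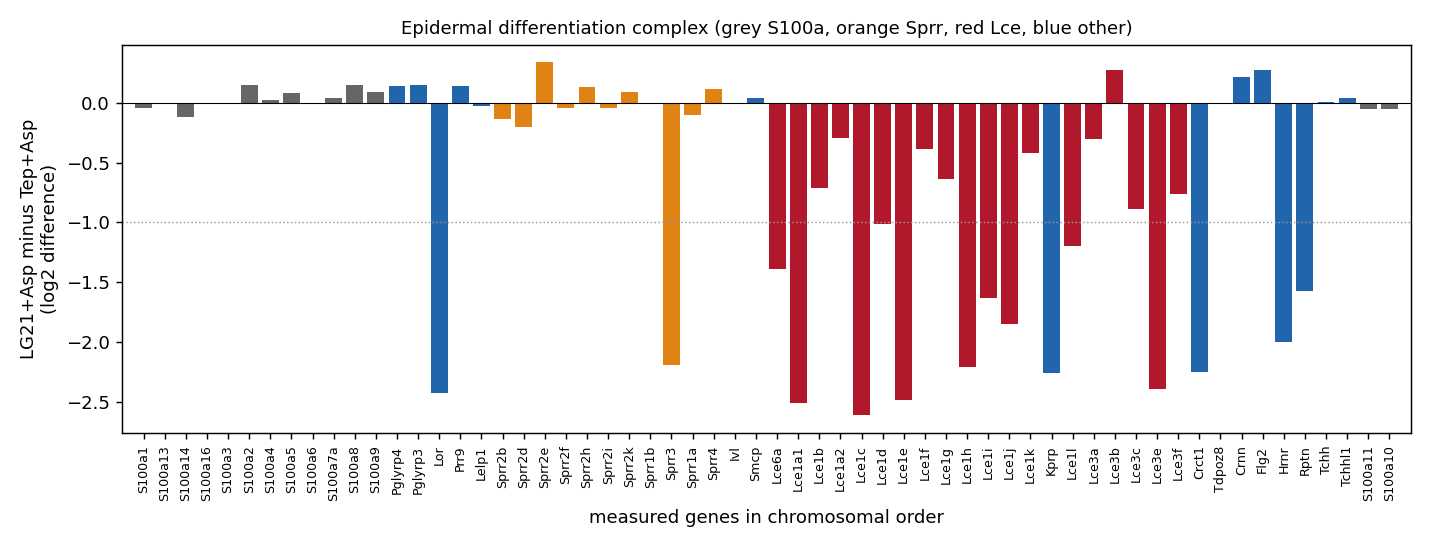
Differences (LG21+Asp minus Tep+Asp, log2) of the 60 measured genes of the epidermal differentiation complex in chromosomal order, coloured by family, with a dotted line at 2-fold lower. The grey S100a genes at both ends and most orange Sprr genes lie near 0, while Lor, Sprr3, many red Lce genes, Kprp, Crct1, Hrnr and Rptn reach between -1 and -2.61.

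In places along the complex a gene near 0 stands next to a gene several-fold apart. Sprr3 and Sprr1a are adjacent among the measured genes and differed by -2.20 and -0.10.

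The bases just before the start of 6 lower genes, picked by hand, are shown as examples. They lie on 3 chromosomes. In each, as in all 27 lower genes, Tep+Asp was the highest and LG21+Asp the lowest array. Each run is the 100 bases upstream of the RefSeq start in build GRCm38.p6, written 5′ to 3′ on the gene's strand. Capitals mark TGANTCA (the letters bound by AP-1 factors), TATAAA (the core letters of a TATA box) or ATAAAAGG. The last is shared by the Lce1c and Lce1e runs, is absent from that of Lce1a1, and was chosen after the sequences were read.
Lor, chr3:92083143-92083242, minus strand: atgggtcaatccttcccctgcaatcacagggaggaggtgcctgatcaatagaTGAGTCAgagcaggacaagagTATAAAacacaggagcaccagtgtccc
Krtdap, chr7:30787805-30787904, plus strand: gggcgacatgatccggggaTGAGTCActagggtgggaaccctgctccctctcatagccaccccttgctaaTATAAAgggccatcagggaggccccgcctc
Lce1c, chr3:92679147-92679246, plus strand: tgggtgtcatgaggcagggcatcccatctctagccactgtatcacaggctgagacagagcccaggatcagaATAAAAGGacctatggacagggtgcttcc
Lce1e, chr3:92709075-92709174, minus strand: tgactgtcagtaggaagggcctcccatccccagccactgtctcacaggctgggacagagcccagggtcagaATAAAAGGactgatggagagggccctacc
Lce1a1, chr3:92648308-92648407, minus strand: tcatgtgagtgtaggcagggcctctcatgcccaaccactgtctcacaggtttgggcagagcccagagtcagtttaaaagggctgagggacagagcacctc
Krt10, chr11:99389365-99389464, minus strand: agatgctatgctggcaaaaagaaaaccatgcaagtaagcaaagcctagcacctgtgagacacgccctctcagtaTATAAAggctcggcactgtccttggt

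Lor and Krtdap, on different chromosomes, both had TGAGTCA upstream of TATAAA. The Lce runs resembled one another. Identity over the alignment was 83% between Lce1c and Lce1e, 78.6% between Lce1e and Lce1a1 and 70.6% between Lce1c and Lce1a1. The other pairs of runs ran from 49.1% (Lor and Krt10) to 56.9% (Lce1c and Krt10). In the 250 bases upstream, searched on both strands, TGANTCA was present in 5 of the 21 lower genes whose upstream bases were in the RefSeq table used here (23.8%) and in 7.12% of 15614 genes. TATAAA was present in 8 of the 21 (38.1%) and in 12.5% of all. ATAAAAGG, whose letters overlap TATAAA when a T precedes them, was present in 6 of the 21 (28.6%) and in 1.61% of all. Related Lce genes count several times in these shares, and a match is no proof of a binding site. ATAAAAGG was read from Lce1c and Lce1e, which are among the 6 genes counted with it, so its share is partly set by that choice.

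Late epidermal enzymes and their inhibitors, which process lipids and proteins of the barrier, had 33 of 42 members lower in LG21+Asp and 6 higher, with a median of -0.38 and 9 at least 2-fold lower. The position of Tep+Asp above and LG21+Asp below the other 3 held for 24. Serpinb12, a protease inhibitor of surface epithelia, had the largest difference of the comparison. It read 7.95 in each of GA+GA, LG21+GA and GA+Asp, 8.63 in Tep+Asp and 5.92 in LG21+Asp, 6.54-fold lower. Spink5, the inhibitor of epidermal kallikreins, read 7.73, 7.85, 7.48, 8.67 and 6.70, 3.90-fold lower, with 52.3% of its gap below the other 3. Elovl4, which makes very long acyl chains for barrier lipids, read 7.84, 8.04, 7.63, 8.65 and 7.16, 2.81-fold lower.

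Asprv1, a protease that trims profilaggrin, was 9.33 in Tep+Asp and 7.55 in LG21+Asp (3.43-fold lower), with 8.69 to 8.87 on the other 3. Casp14, the caspase of cornification, was 7.45 against 6.17, and Abca12, the transporter that loads barrier lipids, 7.56 against 6.33. The cross-linking transglutaminases were closer, with Tgm1 at 7.73 against 7.28, Tgm3 at 7.30 against 6.89 and Tgm5 equal at 6.55. None of the 11 measured kallikreins of the chromosome 7 cluster was 2-fold apart, and their median was -0.16. Klk10 (7.80 against 7.30), Klk8 (7.39 against 6.82) and Klk13 (7.06 against 6.42) were on either side of the other 3, whereas Klk7, which cuts corneodesmosin, was 7.11 against 6.94. The serpinb cluster on chromosome 1 had a median of -0.53 over 11 genes, 10 of them lower. In LG21+Asp its Serpinb3a, Serpinb3c, Serpinb3d, Serpinb7, Serpinb10 and Serpinb11 read under 4.91, the highest value of Xist. That median was the difference of Serpinb11 (4.91 against 4.38), so its size is uncertain. The kallikrein and serpinb clusters were both looked at after the values were seen.

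Genes of moist squamous linings were mixed. Of 33 measured, 18 were lower, 9 higher and 6 equal, with a median of -0.02 and 2 at least 2-fold lower. Dapl1, a gene of early differentiation, read 8.0 in GA+GA, 8.18 in LG21+GA, 7.91 in GA+Asp, 8.69 in Tep+Asp and 7.01 in LG21+Asp, 3.20-fold lower. The membrane-anchored proteins Ly6g6c (9.56 against 8.67), Lypd3 (8.48 against 7.65) and Lypd5 (8.34 against 7.78) and the secreted Slurp2 (8.03 against 7.51) had the same arrangement. Ly6d was 9.15 against 9.22, inside the other 3, and Mal, Cldn4 and Aqp3, shared with gland or other epithelia, differed by 0.02 or less.

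A further 4 of the 27 lower genes were on no list and are named after their values were seen. Ada, adenosine deaminase, which mouse forestomach makes in quantity, read 8.34 in GA+GA, 8.46 in LG21+GA, 8.58 in GA+Asp, 9.18 in Tep+Asp and 7.26 in LG21+Asp, 3.79-fold lower. Them5, an acyl-CoA thioesterase, was 8.58 against 6.68 (3.72-fold lower), and Mt4, the metallothionein of stratified squamous epithelium, 8.03 against 6.74 (2.46-fold lower). The predicted gene Gm94 was 9.47 against 7.63 (3.58-fold lower). In each of these the other 3 arrays lay between. Beneath the filter, 19 further genes were 2-fold lower, 13 of them on the squamous lists, led by Fads2b, a desaturase-like gene, at 8.03 against 5.38 (6.28-fold lower).

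Stroma differed from the epithelium in both size and shape. Over the 162 stroma genes the median difference was -0.03, and Tep+Asp lay above the other 3 arrays in 83 while LG21+Asp lay below them in 19. Over all genes Tep+Asp lay above them in 16.3% and LG21+Asp below them in 18%. Collagens and fibroblast genes were the most uniform, with 32 of 33 lower in LG21+Asp, a median of -0.12 and none 2-fold apart. Tep+Asp was above the other 3 in 31 of the 33, and LG21+Asp was below them in 7. So for this list LG21+Asp mostly lay within the range of the other 3, and the pair differed mainly through the Tep+Asp array.

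Col3a1, a collagen of soft connective tissue, read 9.60 in GA+GA, 9.64 in LG21+GA, 9.61 in GA+Asp, 9.86 in Tep+Asp and 9.60 in LG21+Asp (-0.25). Col1a1, the main fibrous collagen, read 9.97, 10.09, 10.04, 10.26 and 10.05 (-0.21). Pdgfra, the receptor that marks fibroblasts, read 9.28, 9.31, 9.21, 9.61 and 9.35 (-0.26). In these 3 genes the 4 arrays other than Tep+Asp lay close to one another and below it.

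The largest differences of the list were in Mfap5, a microfibril protein (8.92 against 8.54, -0.38), Lum, a collagen-binding proteoglycan (8.11 against 7.76, -0.35), and the collagen cross-linking enzyme gene Lox (9.18 against 8.91, -0.27). For Mfap5 and Lum LG21+Asp also lay just under the other 3, which ran from 8.58 to 8.75 and stood at 7.90. Highly expressed matrix genes were nearer together, with Sparc at 12.54 against 12.43 and Dcn at 12.00 against 11.88. The collagen and fibroblast differences were larger than the median spread of the other 3, which was 0.05, but they were a small part of a 2-fold step.

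Basement membrane and vessel matrix genes had 11 of 15 members lower in LG21+Asp, 4 equal and none higher, with a median of -0.09. Lama2, a laminin of muscle and mesenchyme, read 9.07, 9.09, 9.10, 9.29 and 9.10 in the usual order, and Nid1, which links laminin to collagen, 9.74, 9.76, 9.76, 9.97 and 9.83. LG21+Asp was below the other 3 in none of the 15. Smooth muscle genes had 17 of 18 lower, with a median of -0.07, beside 4721 of the 9969 filtered genes. Myh11, the smooth muscle myosin, read 11.60, 11.62, 11.55, 11.77 and 11.66, and Acta2, its actin, 12.36 against 12.34.

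Endothelial genes had a median of -0.04, with 16 of 27 lower in LG21+Asp, beside 4721 of the 9969 filtered genes. The adhesion gene Cdh5 read 9.22, 9.22, 9.21, 9.37 and 9.24, and Pecam1 was 9.04 against 9.0. Of 10 pericyte genes, Abcc9, a potassium channel subunit, was farthest apart, at 9.01 in Tep+Asp against 8.75 in LG21+Asp and 8.61 to 8.73 elsewhere. Skeletal muscle, mesothelium, enteric neuron and glia, and adipocyte lists had medians from 0.00 to 0.01. Across the stroma lists the pattern of a high Tep+Asp array was thus seen in matrix, vessel and smooth muscle genes and not in nerve or fat genes.

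**Figure D4:**
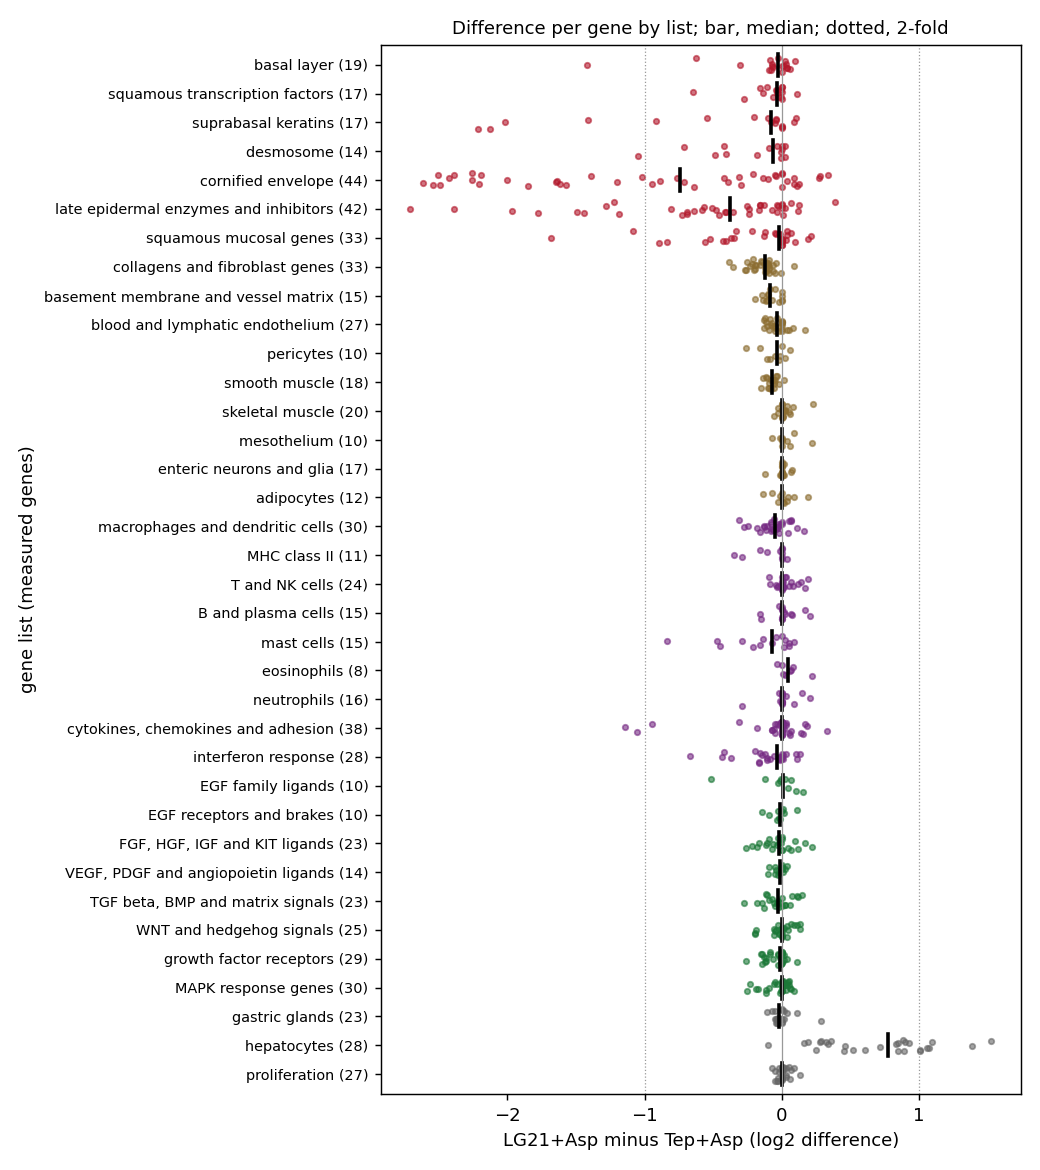
Difference of every measured gene (LG21+Asp minus Tep+Asp, log2) by list, with the number of measured genes in brackets, a black bar at the list median and dotted lines at 2-fold. Only squamous lists, 2 cytokine genes and hepatocyte genes reach past 2-fold, and the collagen list is shifted to a median of -0.12 with little scatter.

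Immune genes as a whole gave no shift, with 82 of 185 lower, 62 higher and a median of 0.00. The genes that marked T and NK cells, B cells, neutrophils and eosinophils were mostly below the filter, where the array reads little above its background. Of the T and NK cell genes 2 of 24 were above it. Cd79a, a B cell receptor chain, was 4.93 against 4.78 and Cd3e, a T cell receptor chain, 7.34 against 7.25. The neutrophil genes S100a8 and S100a9 were 5.18 against 5.32 and 6.28 against 6.38. List medians were 0.00 for B and plasma cells, 0.01 for T and NK cells (-0.01 under cyclic loess, so without a settled sign), 0.00 for neutrophils and 0.04 for eosinophils.

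Macrophage and dendritic cell genes were slightly lower in LG21+Asp, 22 of 30 with a median of -0.05. Of all genes 33.6% were lower, and of the 9969 filtered genes 4721 were. Mrc1, the mannose receptor of resident macrophages, read 8.05 in GA+GA, 8.08 in LG21+GA, 7.93 in GA+Asp, 8.26 in Tep+Asp and 7.95 in LG21+Asp. Ccl6, a macrophage chemokine, was 7.68 against 7.41, and Lyz2, the myeloid lysozyme, 9.86 against 9.68, with Tep+Asp highest of the 5 in each. Csf1r, the receptor on which macrophages depend, was 8.45 against 8.33, and the antigen-presentation gene Cd74 8.92 in LG21+Asp, 9.27 in Tep+Asp and 9.05 to 9.48 elsewhere. H2-Eb1, an MHC class II chain, was 8.31 against 8.02, but the other 3 arrays spread from 7.57 to 8.52. The MHC class II list as a whole had a median of 0.00 over 11 measured genes. Of these, 5 were lower in LG21+Asp, 5 equal and 1 higher, and both arrays lay within the other 3 in 7.

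Mast cell genes were mixed, with 9 of 15 lower in LG21+Asp, 5 higher and a median of -0.07. LG21+Asp lay below the other 3 arrays in 7 members and above them in 3, where 18% of all genes lay below. Mcpt1, Mcpt2 and Cpa3 were lowest in LG21+Asp and highest in LG21+GA. Mcpt1, a protease of mucosal mast cells, read 7.48 in GA+GA, 8.45 in LG21+GA, 6.77 in GA+Asp, 7.24 in Tep+Asp and 6.40 in LG21+Asp (-0.84). Mcpt2, its close relative, read 8.91, 9.26, 8.46, 8.39 and 7.94 (-0.45), and Cpa3, a mast cell carboxypeptidase, 8.73, 8.84, 8.63, 8.80 and 8.33 (-0.47). The other 3 arrays differed among themselves by 1.68 for Mcpt1, more than the pair did. Kit, which pacemaker cells of the gut wall also carry, was 9.62 on both.

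Interferon response genes had 20 of 28 lower in LG21+Asp, with a median of -0.04, beside 33.6% of all genes and 4721 of the 9969 filtered genes. Iigp1, an interferon-induced GTPase, read 6.94, 7.25, 6.34, 7.04 and 6.37 (-0.67), and LG21+Asp was close to GA+Asp there. Gbp4, another such GTPase, read 7.33, 8.13, 7.70, 8.06 and 7.62 (-0.44). The chemokine gene Cxcl9 was 7.42 against 7.0, both under the 7.45 to 7.95 of the other 3. For Iigp1 and Gbp4 both arrays were inside the range of the other 3, and LG21+GA was the highest array in all of Iigp1, Gbp4 and Cxcl9.

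Cytokine genes balanced out, with 14 of 38 lower, 13 higher and 11 equal. The exceptions were interleukin 36 genes, cytokines made by squamous keratinocytes. Il1f6 (interleukin 36 alpha) read 7.0 in GA+GA, LG21+GA and GA+Asp, 7.49 in Tep+Asp and 6.44 in LG21+Asp (-1.06). Il1f8 (beta) read 5.64, 5.60, 4.98, 6.09 and 4.95 (-1.14), and Il1f9 (gamma) 6.16, 6.19, 6.02, 6.65 and 5.70 (-0.95). Il1f5, the antagonist of the same receptor, named after its value was seen, read 7.08, 7.18, 7.09, 8.06 and 6.41 (-1.65). So these ligands and the antagonist Il1f5 were arranged as the cornified genes were, but all were below the filter. For Il1f8 LG21+Asp lay only just under GA+Asp, and both were near 4.91, the highest value of Xist. Il1f10 (0.03) and Il1rn (0.04), of the same gene cluster, did not have this arrangement.

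Other inflammatory signals did not share this. Il1b was 6.04 against 6.01, Il6 was 3.03 on both, Tnf was 6.41 on both, and Il33, an alarmin of epithelial and stromal nuclei, was 10.66 against 10.49. Il1b and Tnf read under the filter level of 7.41 on both arrays, and Il6 under 4.91, the highest value of Xist. For these genes a lack of difference is therefore uncertain. The prostaglandin synthase gene Ptgs2 was 8.24 in Tep+Asp and 8.18 in LG21+Asp, both above the 7.74 to 7.93 of the other 3. Ccl28, a mucosal chemokine, was lower in Tep+Asp (7.96) than in LG21+Asp (8.28) and 8.34 to 8.41 elsewhere.

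Among growth factors, 85 of 160 genes were lower and 50 higher in LG21+Asp, with a median of -0.01 and none 2-fold apart. Of the 9969 filtered genes 4721 were lower and 3076 higher. EGF family ligands, which drive epithelial repair, were evenly split with 5 lower and 5 higher. Ereg, epiregulin, read 7.15 in GA+GA, 7.06 in LG21+GA, 7.15 in GA+Asp, 7.67 in Tep+Asp and 7.15 in LG21+Asp (-0.51), so Tep+Asp alone stood apart. Tgfa, the main EGF receptor ligand of the stomach, read 8.90, 8.89, 8.86, 8.85 and 8.90, and Hbegf was 8.10 on both. Egf was slightly higher in LG21+Asp (7.21 against 7.11) and Btc slightly lower (8.31 against 8.42), while Areg had no probe set naming it alone and was not analysed here. Their receptor Egfr was 9.15 in Tep+Asp and 9.01 in LG21+Asp, with 9.13 to 9.25 elsewhere.

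Several ligands and matrix signals of stroma were higher in Tep+Asp than in LG21+Asp, as the collagens were, by small amounts. Fgf2 read 7.17, 7.15, 7.25, 7.48 and 7.27 (-0.21), and Hgf, the scatter factor that acts on epithelium, 7.24 in LG21+Asp and in the other 3 and 7.40 in Tep+Asp (-0.16). Igfbp5, which binds insulin-like growth factors, was 10.15 against 9.89. Thbs1, a matrix activator of TGF beta, read 9.50, 9.33, 9.50, 9.78 and 9.51 (-0.28). Bmp4 was 9.82 against 9.68, Ccn2, a matrix target of TGF beta, 10.20 against 10.03 and the WNT antagonist gene Sfrp1 10.52 against 10.32. In the TGF beta, BMP and matrix list Tep+Asp lay above the other 3 in 15 of 23 genes. LG21+Asp lay below them in 1 and above them in 11, where it lay above them in 4831 of all 19938 genes. Part of that list was thus raised on both arrays of the pair.

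Receptors for growth factors had a median of -0.01 over 29 genes. Of them Pdgfra was the farthest apart, followed by Nrp1, a co-receptor of vessels (9.36 against 9.21), and, about equally, Egfr and Tgfbr3 (9.27 against 9.13). The VEGF, PDGF and angiopoietin ligands had a median of -0.01 and Vegfa was 9.44 against 9.47. Genes that respond to MAPK signalling had a median of 0.00 over 30 genes. Jun (10.46 against 10.28), Dusp1 (10.01 against 9.76) and Plaur (8.15 against 7.92) were lowest in LG21+Asp of all 5 arrays, while Dusp6 (9.72 against 9.82), Egr1 (8.36 against 8.43) and Fosb (7.52 against 7.59) were slightly higher there than in Tep+Asp.

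**Figure D5:**
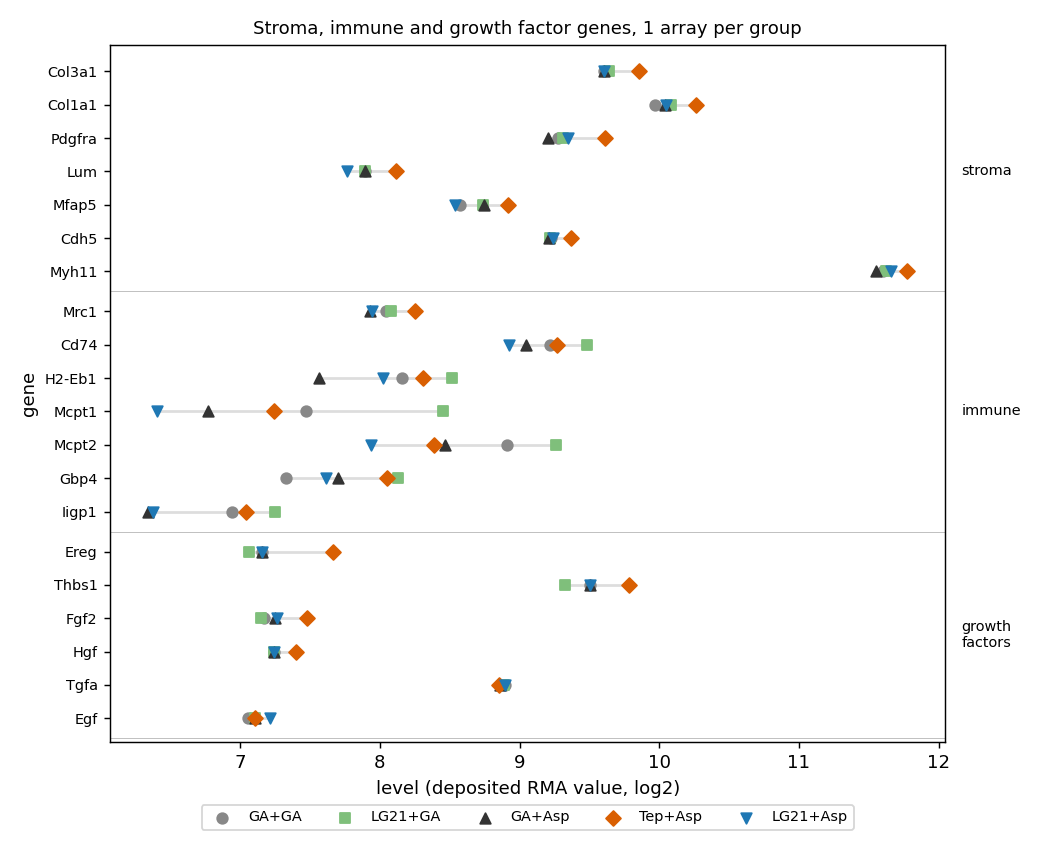
Deposited log2 levels (horizontal) of stroma, immune and growth factor genes, with 1 symbol per array and a grey line from the lowest to the highest of the 5. In stroma and in Ereg, Thbs1, Fgf2 and Hgf, Tep+Asp (orange) stands above the other 4 arrays, while in Mcpt1, Mcpt2, Cd74 and Iigp1 the 5 arrays are spread out, with LG21+GA (green) highest.

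Hepatocyte genes, which encode liver proteins, formed the opposite side of the comparison. Of 28 measured, 27 were higher in LG21+Asp than in Tep+Asp and 1 lower, with a median of 0.78. Alb, serum albumin, read 12.69 in GA+GA, 12.37 in LG21+GA, 7.43 in GA+Asp, 10.41 in Tep+Asp and 11.80 in LG21+Asp. Serpina1c (1.53), Fgg (1.10), Cps1 (1.07), Pzp (1.06), Mat1a (1.01) and Fgb (1.01) were the other genes past 2-fold, and Hpd (0.93) was just outside. Both arrays of the pair lay inside the range of the other 3 for all 7, with GA+Asp lowest each time. The list median was 7.02 in Tep+Asp and 7.92 in LG21+Asp, against 9.37 in GA+GA, 8.62 in LG21+GA and 6.66 in GA+Asp. None of its genes was on a squamous list, and its part in the squamous differences was not tested.

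Probe sets that named no single gene added none on the lower side and more than the named genes on the higher side. Of 760 above the filter that named several genes, 0 were 2-fold lower and 2 were 2-fold higher in LG21+Asp, and of 3176 that named none, 0 and 10 were.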

How the data were processed

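Affymetrix Mouse Gene 1.0 ST arrays measured total RNA. The deposited values come from RMA summarisation in Expression Console, per the labels (the design text names the Exon Array Computational Tool). No software version or genome build was given in the sources used here. Their log2 scale was inferred from the deposited range of 1.32 to 13.87. The authors' normalization was kept. Of 35557 probe sets, 21789 named 1 gene, 1621 several and 12147 none in the platform annotation. Of the symbols, 21698 were matched to RefSeq (GRCm38.p6) by gene identifier. Where a gene had more than 1 probe set (999 genes), that of the highest mean level was taken.

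The value of LG21+Asp minus that of Tep+Asp was taken per gene (Python 3.11.15, pandas 2.3.3). Counts used a 2-fold threshold among genes with a mean above the median of all genes. Of 830 symbols on 37 lists, 781 were measured. A gene was above or below the other 3 arrays where it lay outside their range. Quantile normalization and cyclic loess (limma 3.58.1, 3 iterations, R 4.3.3) were among the alternatives. The counting was tested on simulated data.

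The members, lists and tests were chosen with earlier results of these data known. Genes named were the 15 largest differences each way among genes 2-fold apart, up to 6 members of each list with the largest absolute difference and up to 3 with the highest level (4 of either for lists of glands, liver and proliferation) and a fixed set of marker genes. Predicted names, chemosensory receptors and immune receptor segments were left out. Other genes were named after their values were seen. With 1 array per group, the number of arrays limits the precision.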

Additional observations from a re-analysis of the deposited data

How the results depend on the processing

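Counts of genes depended on the filter. Genes at least 2-fold lower in LG21+Asp numbered 27, and 46 with no filter, and 13 with a filter at the 75th percentile, all 13 among the 27. Genes at least 2-fold higher numbered 7, and 11 with no filter, 1 at the 75th percentile, 14 at a threshold of 1.5-fold and 0 at 3-fold. For lists, the mean in place of the median moved suprabasal keratins from -0.08 to -0.56, the cornified envelope from -0.74 to -0.96 and late epidermal enzymes from -0.38 to -0.56. Taking members above the filter alone gave -1.16 for suprabasal keratins and -2.20 for the cornified envelope. The mean also gave -0.13 for the basal layer, -0.24 for desmosomes and -0.22 for squamous mucosal genes, and filtered members gave -0.22 for the last and -0.26 for mast cells. No median of 0.1 or more in size changed sign under the alternatives run. Medians near 0 did in 2 lists. That of T and NK cells (0.01) was -0.01 with filtered members and under cyclic loess and -0.0033 under quantile normalization, and that of EGF family ligands (0.01) was -0.03 as a mean and -0.0058 with filtered members. Quantile normalization and cyclic loess moved the median of all genes by 0.01 or less. The restriction to members above Xist on both arrays was chosen after seeing the data. No paired analysis was possible because each group had 1 array. Low signals compress differences, so those of genes below the filter are least certain.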
